A study of Mus musculus with 4 samples.

Results

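The genes examined here are 34 mouse genes of the interferon gamma response and of MHC class I antigen presentation, taken from a fixed list of gene symbols and read from a table of RNA sequencing read counts for 24411 symbols. All 34 symbols were in the table, and 28 of them passed the low-count filter that kept 12810 genes for testing. The list was split by role into 7 groups, which were 11 interferon-inducible GTPases, 3 chemokines, 4 regulators of transcription and signalling, 3 other induced effectors, 5 genes of the immunoproteasome and its activator, 4 genes of peptide transport, trimming and loading, and 4 MHC class I chains.

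Interferon gamma is a cytokine made mainly by T cells, NK cells and other innate lymphocytes. It binds a receptor of paired chains, and signalling through the kinases Jak1 and Jak2 turns on genes with gamma-activated sites in their DNA, such as Irf1, whose product acts in turn on interferon-stimulated response elements. Guanylate-binding proteins and immunity-related GTPases attack the vacuoles of intracellular microbes, and the immunoproteasome, the peptide transporter and the class I chains together place peptides from inside the cell on its surface for CD8 T cells. Most nucleated cells make class I molecules, so in a salivary gland these transcripts can come from epithelium and vessels as well as from immune cells.

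The samples were sublingual glands, a mucous salivary gland, from female mice of the C57BL/6J background with genotype Nkx2.3-/-, at 8 weeks (replicates 1 and 2) and 32 weeks (replicates 3 and 4) of age. All 4 libraries are labelled as knockout, and no wild-type library was analysed here. Whether each library is a different animal is not in the labels, and p-values therefore reflect library-to-library spread alone, some or all of which may be technical. With 2 libraries an age an exact permutation test of 1 value cannot go below p = 0.333, so the tests below come from a model fitted across all genes. Values in the text are listed in the order 8-week replicate 1, 8-week replicate 2, 32-week replicate 3, 32-week replicate 4.

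Totals ran from 12925869 to 16484772 counts a library. Nkx2-3 itself still had 31, 28, 21 and 29 counts, and the deleted part of the gene is not stated, so these reads do not check the genotype label. The gland's secretory genes Muc19, Smgc and Dcpp1 to Dcpp3 were abundant in each library but uneven between libraries, where CPM is the count over the library's total in units of 1e6, scaled by edgeR's TMM factors. Muc19 ran from 12021 to 20281 CPM, while Smgc had 142080, 73277, 41973 and 125860 CPM and the secreted protein gene Bpifa2 had 15260, 37648, 42620 and 13013 CPM. The libraries did not sort by age. Across genes, which are not independent replicates, Pearson's r of log2 CPM was highest between 8-week replicate 1 and 32-week replicate 4 (0.982) and lowest between the 8-week libraries (0.955), and 8-week replicate 2 had the lowest or the highest value of the 4 libraries in most genes (highest in 34.8% and lowest in 35.3% of the 12810). Results are therefore given by library as well as by age.

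Upstream sequences of the GTPases are shown first, with those of Irf1 and Psmb8, because the GTPase and proteasome groups had their highest values in different libraries. RefSeq promoter entries (build GRCm38.p6) were found for 27 of the 34 genes, and the 250 bases before each start were searched on both strands for GAAANNGAA, the core of the interferon-stimulated response element, for TTCNNNGAA, the gamma-activated site, and for CCAAT. Each window below holds the last 110 bases before the start, read 5′ to 3′ on the gene's strand, with matches to either of the first 2 motifs in capitals. Gbp3 and Irf1 have 2 entries each, and the entry shown was picked because it holds a match. Their other entry held no match to either motif in its 250 bases.
Igtp (chr11:58199446-58199555, plus strand): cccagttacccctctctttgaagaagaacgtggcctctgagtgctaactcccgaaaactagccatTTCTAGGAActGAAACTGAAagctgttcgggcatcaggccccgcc
Irgm2 (chr11:58214867-58214976, plus strand): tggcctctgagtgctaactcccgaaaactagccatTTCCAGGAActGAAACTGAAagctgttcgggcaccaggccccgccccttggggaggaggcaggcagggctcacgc
Tgtp1 (chr11:48992247-48992356, minus strand): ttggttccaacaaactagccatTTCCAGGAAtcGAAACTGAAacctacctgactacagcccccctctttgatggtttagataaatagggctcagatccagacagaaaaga
Irgm1 (chr11:48871421-48871530, minus strand): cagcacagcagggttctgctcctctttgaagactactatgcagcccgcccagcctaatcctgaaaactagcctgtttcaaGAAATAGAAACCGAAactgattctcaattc
Gbp3 (chr3:142559934-142560043, plus strand): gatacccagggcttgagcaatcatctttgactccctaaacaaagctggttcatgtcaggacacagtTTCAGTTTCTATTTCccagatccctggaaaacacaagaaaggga
Gbp7 (chr3:142530226-142530335, plus strand): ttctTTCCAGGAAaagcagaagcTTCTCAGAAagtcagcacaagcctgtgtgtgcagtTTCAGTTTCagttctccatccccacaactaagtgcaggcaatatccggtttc
Irf1 (chr11:53769904-53770013, plus strand): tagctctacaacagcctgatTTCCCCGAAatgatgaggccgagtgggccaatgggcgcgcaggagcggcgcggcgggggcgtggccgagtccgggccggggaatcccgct
Psmb8 (chr17:34198085-34198194, plus strand): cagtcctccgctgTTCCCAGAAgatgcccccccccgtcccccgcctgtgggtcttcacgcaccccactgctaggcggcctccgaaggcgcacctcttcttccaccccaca
Igtp, Irgm2 and Tgtp1, all on chromosome 11, each had a match to the gamma-activated site followed by a response element core, with 2 bases between them. Irgm1 and Gbp3 each had 2 response element cores that overlap, and the matches of Gbp3 and the response element core of Gbp7 lie on the opposite strand. All 8 GTPases with an entry held the response element core, and 5 of these 8 (Gbp5, Gbp7, Irgm2, Igtp and Tgtp1) held the gamma-activated site. Among the 5 immunoproteasome and activator genes, 0 held the response element core in this window and 1, Psmb8, held the gamma-activated site. Of the 4 class I chains, B2m and H2-T23 held the response element core and 0 held the gamma-activated site, while all 4 held CCAAT, the letters of the CCAAT box found in class I promoters. Over all 27025 genes with an entry, counting a match in any entry of a gene, 8.18% held the response element core, 8.13% the gamma-activated site and 37.5% CCAAT. A match is a string of letters and not a measured binding site. A site that departs from these letters, or lies outside the 250 bases, is missed, so a gene without a match may still have one.

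No gene of the set passed the comparison of 32 with 8 weeks. In edgeR's quasi-likelihood test 0 of 28 members reached an adjusted p of 0.05, against 0 of all 12810 genes (0%), and 0 members had an unadjusted p under 0.05, against 174 of all genes. DESeq2, run on 18104 genes, called 3 (0.0166%), which were Lrrk2, Klk1b22 and Smr3a and not members. It had 0 of 34 members at an unadjusted p under 0.05, against 89 of its 18104 genes. With so few genes under 0.05 in either tool, these counts of 0 do not set the members apart from other genes. Of the 28 tested members, 16 had a positive and 12 a negative log2 fold change (32 weeks over 8 weeks), or 57.1% positive against 48.3% of all genes, and their median was 0.034 against -0.011. Both 32-week libraries lay above both 8-week libraries in 6 members (14.4% of all genes), which were Irf8, Psmb9, Psmb10, Tapbp, H2-K1 and H2-D1. They lay below in 4 members (14.2% of all genes), which were Gbp4, Gbp6, Gbp7 and Igtp. In bulk tissue, fewer cells of a type and less RNA per cell cannot be told apart. The median 95% interval of a member reached 0.62 to either side on the log2 scale. In the plot of fold changes every interval crossed 0.

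**Figure D1:**
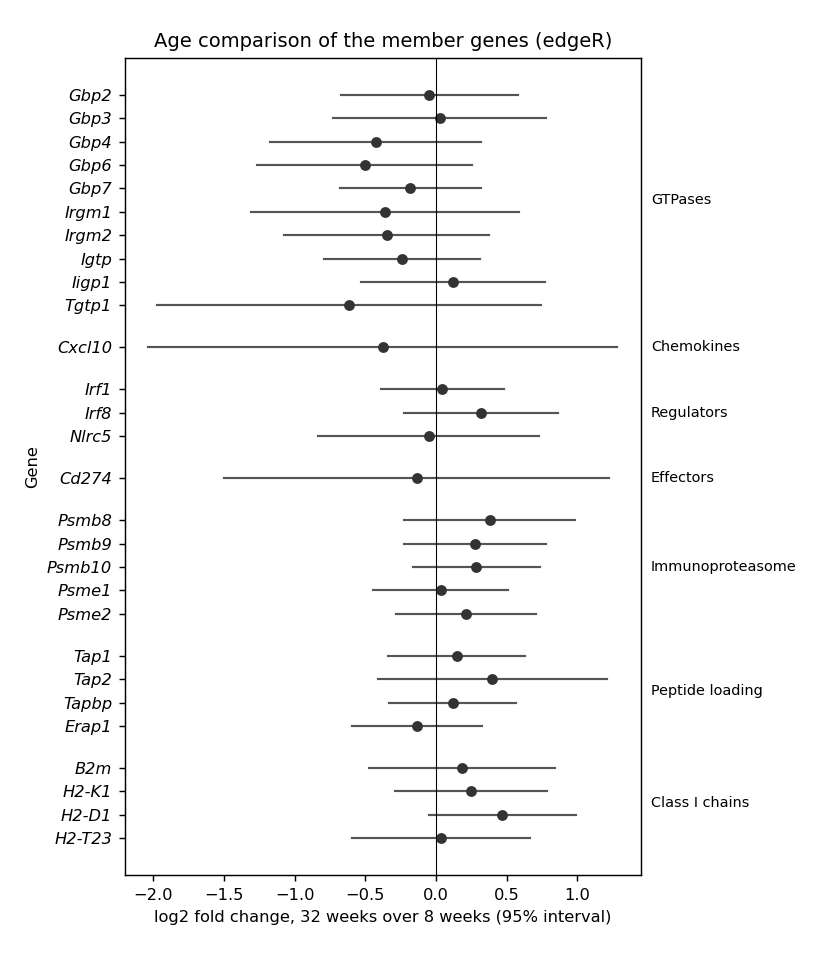
Log2 fold change of 32 over 8 weeks for the 28 tested genes, grouped by role, from edgeR with 2 libraries an age. Points are estimates and bars are 95% intervals; all 28 bars cross 0, H2-D1 comes nearest to excluding it (0.47, interval -0.050 to 0.99), and the bars of Cxcl10, Tgtp1 and Cd274, the least abundant, are the widest.

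The interferon-inducible GTPases were highest in one young library. Of the 10 that were tested, 9 had their highest value in 8-week replicate 2, against 34.8% of all genes, and the exception was Iigp1. This order of libraries was noticed in the values and has no test. Irgm1, an immunity-related GTPase that regulates the other members of its family, stood at 25.3, 53.6, 40.2 and 21.3 CPM. Its highest library was 2.51 times its lowest, and each age had a high and a low library (log2 fold change -0.36, SE 0.41, edgeR adjusted p = 0.999). Irgm2, another regulatory member, had 7.31, 13.3, 8.50 and 7.74 CPM, so that 8-week replicate 2 stood apart from the other 3. Igtp, also known as Irgm3, had 7.53, 9.25, 6.98 and 7.21 CPM, with no overlap of the ages (log2 fold change -0.24, SE 0.24, edgeR adjusted p = 0.999). Iigp1, an effector that is loaded onto parasite vacuoles, varied little, from 3.98 CPM in 8-week replicate 1 to 4.83 CPM in 32-week replicate 4. Tgtp1 was measured on only 5 to 14 counts a library, from 0.346 to 0.967 CPM, and 91.4% of the 50-base words of its transcript also occur in other genes, mainly Tgtp2.

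Among the guanylate-binding proteins, Gbp7 was the most abundant by read count, at 14.3, 14.6, 14.3 and 11.2 CPM. Its first 3 libraries were nearly equal and 32-week replicate 4 was lowest, so that the ages did not overlap, by a very small margin. Gbp3 stood at 5.98, 10.6, 9.68 and 7.27 CPM, the same order of libraries as Irgm1 except at its low end. Gbp2 was the steadiest, between 4.48 and 4.90 CPM in all 4 libraries. Gbp4 (3.10, 3.52, 2.35 and 2.56 CPM) and Gbp6 (3.47, 4.83, 2.70 and 3.14 CPM) were both lower in each older library than in each younger one. The fold changes of these 2 genes were -0.43 (SE 0.32) and -0.51 (SE 0.33) on the log2 scale, and neither passed the test (edgeR adjusted p = 0.999 for each). Gbp6 shares 80.9% of its 50-base words with other genes, mainly Gbp10, and its count is uncertain to that extent. Gbp5, below the filter, had 11, 5, 8 and 8 counts.

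Over the group, fold changes were negative for 8 of 10 GTPases, with a median of -0.30. Leaving out 8-week replicate 2 gave -0.040, leaving out 32-week replicate 4 gave -0.14 and leaving out 8-week replicate 1 gave -0.45, so its size rested on single libraries. Irgm1 and Gbp3 were higher in 8-week replicate 2 and 32-week replicate 3 than in the other libraries. So were the secretory genes Bpifa2, Dcpp1, Dcpp2 and Dcpp3. Others of the 10 secretory genes were not. Smgc was lower in those libraries, and Aqp5 had 540, 242, 602 and 467 CPM. Over this list 4 genes were lowest and 0 highest in 8-week replicate 2, where the median relative to each gene's own mean was -0.13. The part of the secretory genes in the GTPase values was not tested. In other family members kept as a separate list, 8-week replicate 2 was the lowest library in 3 of 5 tested genes and the highest in 0; Ifi47, for example, had 2.80, 1.10, 1.94 and 1.86 CPM. Irgq, the most abundant gene of that list, had 4.58, 3.18, 6.29 and 5.06 CPM. Gbp10 had at most 2 counts in a library and Gvin1 had 0 in all 4, below a floor of 3 counts, or 0.174 to 0.221 CPM by library.

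**Figure D2:**
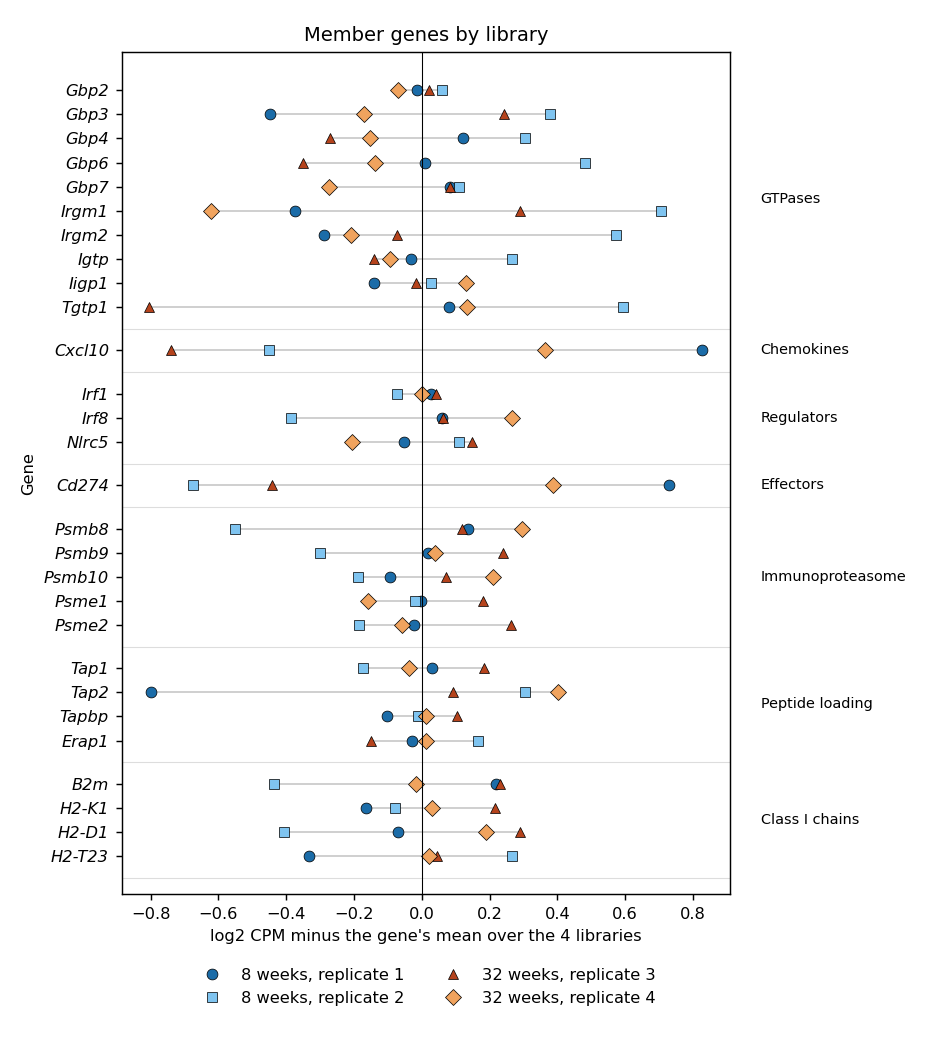
Each row is 1 of the 28 tested genes and each symbol 1 library, placed at its log2 CPM minus the mean of that gene over the 4 libraries. Squares (8 weeks, replicate 2) lie farthest right in 9 of 10 GTPases and farthest left in 4 of 5 immunoproteasome and activator genes.

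The interferon-induced chemokines, which draw T cells through the receptor Cxcr3, were close to the limit of detection. Cxcl9 had 14, 3, 3 and 6 counts. In 8-week replicate 1 that was 1.03 CPM with an exact Poisson interval of 0.565 to 1.73, against 0.207 CPM (0.0427 to 0.605) in 8-week replicate 2, both covering counting error only. Cxcl10 stood at 0.886, 0.345, 0.277 and 0.640 CPM, so its 2 higher libraries were 8-week replicate 1 and 32-week replicate 4. Cxcl11 had 1 to 6 counts in each library and showed no such order.

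Other induced effectors were also scarce. Cd274, which encodes the checkpoint ligand PD-L1, stood at 2.07, 0.760, 0.899 and 1.63 CPM, again highest in 8-week replicate 1 and 32-week replicate 4. The gap within the 8-week pair was 1.41 on the log2 scale, against a fold change between the ages of -0.14 (SE 0.58, edgeR adjusted p = 0.999). Ubd, a ubiquitin-like modifier, had 2, 1, 1 and 5 counts. Ido1, the tryptophan-degrading enzyme, had 2 counts in 8-week replicate 2 and 0 in the other 3 libraries. The exact Poisson upper limit for these 0 counts ran from 0.215 to 0.272 CPM, which covers counting error only.

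Of the regulators, Irf1, a transcription factor that is an early target of the pathway, was the most even gene of the whole set. It stood at 50.6, 47.2, 51.2 and 49.7 CPM, a span of 1.08-fold (log2 fold change 0.044, SE 0.19, 95% interval -0.39 to 0.48). Nlrc5, the transactivator of class I genes, ran from 2.33 to 2.97 CPM, a span of 1.28-fold on 35 to 43 counts a library. Irf8, a factor of myeloid and B cells as well as an interferon target, had 12.7, 9.32, 12.7 and 14.7 CPM. Both older libraries lay above both younger ones, by a margin of almost nothing between replicates 1 and 3, and the gene did not pass (log2 fold change 0.32, SE 0.23, edgeR adjusted p = 0.999). Socs1, the feedback inhibitor of Jak kinases, had 5, 1, 2 and 3 counts.

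The upstream pathway was present but its ligand was hardly detected. Ifng had 2, 1, 0 and 1 counts. The receptor chains were expressed in each library, Ifngr1 at 22.5, 24.4, 21.5 and 21.5 CPM, and Ifngr2 at 15.9, 12.98, 16.9 and 17.3 CPM. Jak1 ran from 79.1 to 99.5 CPM and Jak2 from 9.94 to 11.9 CPM. The phosphatases Ptpn1 (23.6 to 31.4 CPM) and Ptpn2 (23.8 to 30.3 CPM), which act on the Jak kinases, spanned similar ranges. Ciita, the transactivator of class II genes, had 29, 16, 36 and 37 counts. Of the 8 genes of this list that were tested, 0 passed in either direction.

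The immunoproteasome subunits were lowest in the library where the GTPases were highest. All 5 genes of this group had positive fold changes (median 0.28), 0 passed the test, and 4 of 5 had their lowest value in 8-week replicate 2, against 35.3% of all genes. Some markers of other cells had positive fold changes too, in 9 of 9 tested endothelial genes (median 0.31) and 9 of 10 secretory genes (0.33). B cell and plasma cell markers were positive in 6 of 6 (0.38) and macrophage and dendritic cell markers in 8 of 12 (0.15). T cell and NK cell markers were positive in only 2 of 5 (median -0.21). Of these markers 0 passed, and their part was not tested. Psmb8, the induced chymotrypsin-like subunit, stood at 19.6, 12.2, 19.4 and 21.9 CPM (log2 fold change 0.38, SE 0.26, edgeR adjusted p = 0.999). Only 8-week replicate 2 stood apart, and without it the fold change was 0.083. Psmb9, which takes the place of the caspase-like subunit, had 14.02, 11.3, 16.4 and 14.3 CPM, and Psmb10, which takes that of the trypsin-like subunit, had 14.6, 13.7, 16.4 and 18.03 CPM. In both, each older library was above each younger one, for Psmb9 by less than the gap within either age (log2 fold changes 0.28, SE 0.21, and 0.28, SE 0.19; edgeR adjusted p = 0.999 for each).

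Psme1 and Psme2 encode the subunits of the PA28 activator, which caps the proteasome, and they lie on opposite strands of chromosome 14. Psme1 had 49.4, 48.7, 56.0 and 44.3 CPM, so the older libraries held both its extremes. Psme2 had 84.2, 75.3, 103 and 82.1 CPM. Of the 50-base words in its longest coding transcript, 59.3% also occur in Psme2b-ps, so its count is uncertain. The median fold change of the 5 genes was 0.13 with 8-week replicate 2 left out, 0.18 (4 of 5 positive) with 32-week replicate 3 left out and 0.33 with 8-week replicate 1 left out.

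Each induced subunit was set against the constitutive subunit it replaces, as a ratio of counts within a library, which no scaling between libraries can move. Psmb8 over Psmb5 was 0.514, 0.407, 0.485 and 0.560. Psmb9 over Psmb6 was 0.0965, 0.0804, 0.0908 and 0.105, and Psmb10 over Psmb7 was 0.323, 0.262, 0.310 and 0.411. In all 3 pairs the lowest library was 8-week replicate 2, the highest was 32-week replicate 4, and the ages overlapped. The constitutive list itself had 10 of 15 positive fold changes (median 0.12) with 0 genes called, and Psma7, its most abundant gene, had 162, 152, 192 and 163 CPM.

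**Figure D3:**
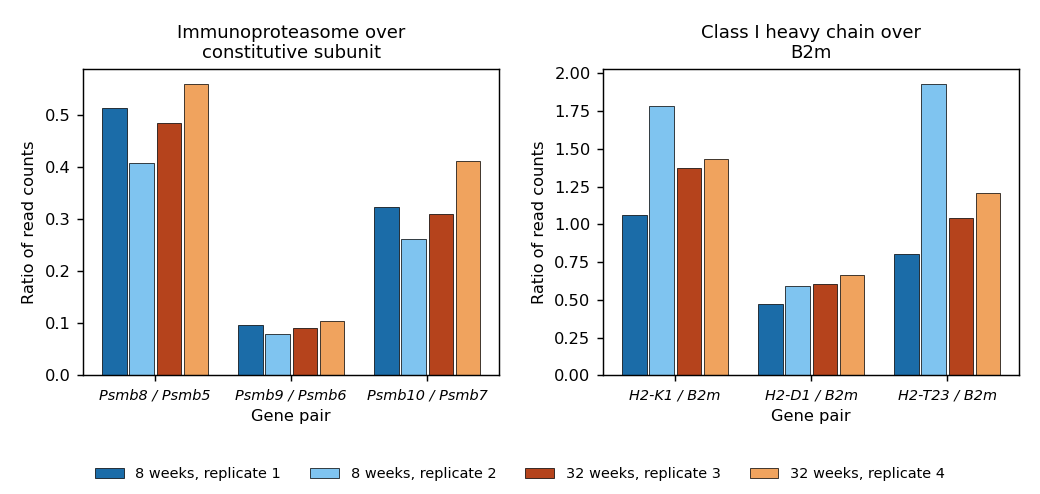
Bars give ratios of read counts within each library, not corrected for transcript length, for 3 immunoproteasome subunits over the subunits they replace (left) and 3 class I heavy chains over B2m (right). On the left 8-week replicate 2 has the lowest bar of each pair, and on the right it has the highest bar for H2-K1 (1.78) and H2-T23 (1.93).

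The genes of peptide transport and loading were among the steadier ones, with the exception of Tap2. Tap1 and Tap2 encode the paired subunits of the transporter that moves peptides into the endoplasmic reticulum. Tap1 stood at 14.1, 12.2, 15.7 and 13.4 CPM. Tap2 had 8.34, 17.95, 15.5 and 19.2 CPM, so 8-week replicate 1 alone was low, and the fold change of 0.40 (SE 0.35, edgeR adjusted p = 0.999) became -0.048 without it. Tap2 shares 533 exon bases with Gm15821 and 165 with Gm20496 on the other strand, and without a stated strand setting their reads cannot be told apart. The same limit holds for other members, among them Cxcl11 (1582 bases shared with Gm2673), Psmb8 (187 with Gm20496) and Irf1 (135 with Gm17334). Tapbp, the tapasin that bridges the transporter and class I, had 78.1, 83.3, 90.3 and 84.7 CPM, and Erap1, the aminopeptidase that trims peptides, had 16.2, 18.5, 14.9 and 16.6 CPM. The older libraries of Tapbp lay above the younger by less than the gap within either age.

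Psmb9, Tap1, Psmb8 and Tap2 form a block within the MHC. On NCBIM37 chromosome 17, Psmb9 (34318932 to 34324697, minus strand) and Tap1 (34324498 to 34334170, plus strand) overlap at their starts, with 200 exon bases in common, and Psmb8 (34334666 to 34338399) and Tap2 (34340472 to 34353266) follow on the plus strand. Psmb9 and Tap1 had nearly equal counts in every library, at ratios of 0.995, 0.921, 1.04 and 1.06. Both were highest in 32-week replicate 3 and lowest in 8-week replicate 2, whereas Tap2 was highest in 32-week replicate 4 and lowest in 8-week replicate 1. Reads from the stretch that Psmb9 and Tap1 share cannot be assigned to either without a stated strand setting.

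The MHC class I chains made up most of the counts of the set, between 67.9% and 70.6% of them by library. Per kilobase of exon, B2m was the highest of the 34 genes, at a mean of 303 CPM per kilobase (range over libraries 220 to 349), and its range lay above that of every other member. H2-K1 followed at 137 (122 to 158), then H2-T23 at 106 (83.3 to 126) and H2-D1 at 58.3 (43.2 to 70.1). The ranges of H2-K1 and H2-T23 over the libraries overlap, while that of H2-D1 lies below both. Within each library H2-K1 was nevertheless above H2-T23 with these exon lengths, narrowly so in 8-week replicate 2. Lengths are those of all annotated exons of a gene, and shorter transcripts in the gland would raise a level. The longest coding transcript has 1605 bases against 2608 exon bases for H2-K1 and 1472 against 2889 for H2-T23. For B2m both lengths are 860 bases. Whether the range of B2m lies above those of H2-K1 and H2-T23 therefore depends on the length used.

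All 4 chains had positive fold changes (median 0.22), and 0 passed. The endothelial (9 of 9 positive, median 0.31), B cell and plasma cell (6 of 6, 0.38) and secretory (9 of 10, 0.33) marker lists had the same sign. The macrophage and dendritic cell list was positive in 8 of 12 (0.15), and the T cell and NK cell list in only 2 of 5 (-0.21). The part of these markers was not tested. H2-D1, a classical heavy chain, stood at 141, 112, 181 and 169 CPM, the smallest unadjusted p of the set (0.0704; log2 fold change 0.47, SE 0.22, edgeR adjusted p = 0.999). Each older library was above each younger one, and the fold change ran from 0.32 to 0.65 with 1 library left out. H2-K1, the other classical heavy chain, had 317, 337, 413 and 363 CPM, also without overlap (log2 fold change 0.25, SE 0.23, edgeR adjusted p = 0.999). B2m, the light chain shared by all class I molecules, had 298, 189, 301 and 253 CPM, with 8-week replicate 2 low. H2-T23, which encodes the nonclassical Qa-1 that presents leader peptides to NK cell receptors, had 241, 365, 313 and 308 CPM, with the same library high. Of their 50-base words, 14.8% for H2-T23, 14.3% for H2-D1 and 8.87% for H2-K1 occur in other genes.

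The balance of heavy to light chain varied between libraries. H2-K1 over B2m was 1.06, 1.78, 1.37 and 1.43, and H2-T23 over B2m was 0.806, 1.93, 1.04 and 1.21. The 8-week libraries held both extremes of each ratio. H2-D1 over B2m was 0.474, 0.590, 0.603 and 0.667, with no overlap of the ages, though replicates 2 and 3 were close. With 1 library left out, the median fold change of the 4 chains ran from 0.11 (32-week replicate 3 omitted) to 0.38 (8-week replicate 1 omitted), with H2-T23 negative when 8-week replicate 1 was omitted and B2m negative when 8-week replicate 2 was.

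Genes beside these 34 help place them. MHC class II genes, which interferon gamma also induces through Ciita, had their lowest value in 8-week replicate 2 in 7 of 7 tested genes, with H2-Aa at 199, 107, 140.5 and 155 CPM. Type I interferon response genes had their highest value there in 13 of 25 (34.8% of all genes) and in 32-week replicate 3 in 9 of 25 (19.9% of all genes). Their lowest value was in 32-week replicate 4 in 17 of 25 (20.5% of all genes), where the median relative to each gene's own mean was -0.37. The most abundant of the 25 was Irf9, a subunit of the type I transcription complex, at 22.4, 43.8, 32.7 and 22.5 CPM. Its lowest library was 8-week replicate 1, by a very small margin. General class I folding factors were led by Pdia3, at 268, 401, 367 and 287 CPM. In these 3 lists, 0 genes passed the age comparison.

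Markers of immune cells differed between the libraries as well. The summed level of 18 T cell and NK cell markers was 15.2, 6.63, 6.98 and 12.4 CPM, the same order of libraries as Cd274. Only 5 of the 18 passed the filter, of which 3 were highest in 8-week replicate 1 and 2 in 32-week replicate 4. Cd3e had 8, 2, 0 and 11 counts and Cd8a had 12, 2, 0 and 10 counts, but Lck (22, 19, 8 and 18 counts), Ncr1 (6, 7, 9 and 9 counts) and Prf1 (1, 5, 1 and 5 counts) did not follow that order. For 15 macrophage and dendritic cell markers the sum was 257, 153, 184.5 and 261 CPM, and for 9 B cell and plasma cell markers, mostly Jchain, it was 1009, 124, 590 and 886 CPM. Relative to each gene's own mean, the median was -0.70, -0.47 and -1.56 in 8-week replicate 2 over the 5, 12 and 6 tested genes of these 3 lists, against 0.34 for the GTPases, 0.22 for the type I list, -0.19 for the immunoproteasome group and -0.24 for the class I chains. The part of these cell markers in the values of the 34 genes was not tested.

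**Figure D4:**
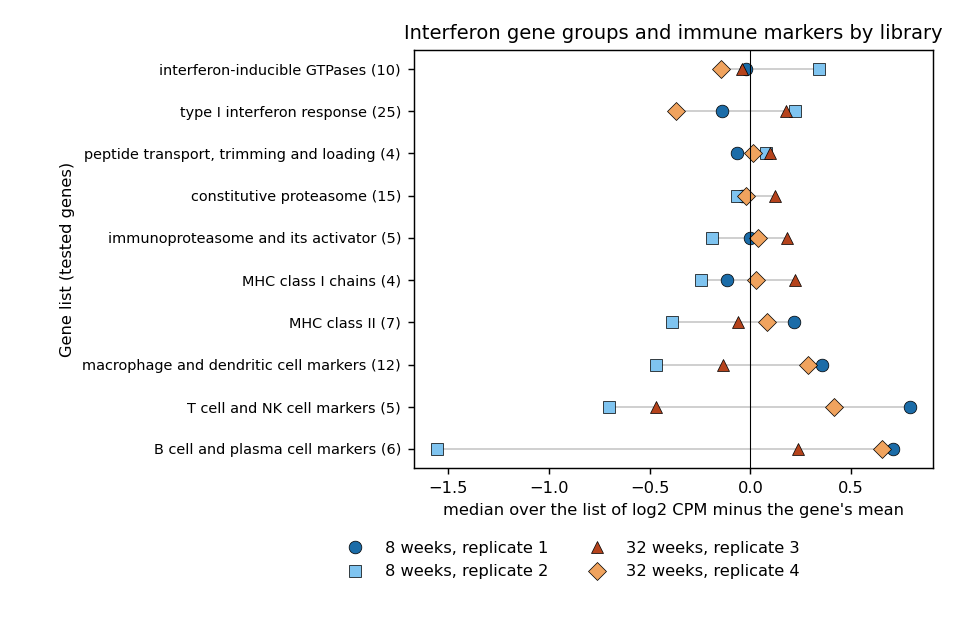
Symbols give, for each library, the median over a gene list of log2 CPM minus the gene's own mean, for 4 groups of the 34 genes and 6 lists set beside them, with the number of tested genes in brackets. The squares (8 weeks, replicate 2) lie to the right for the GTPases (0.34) and type I genes (0.22) and to the left for the immunoproteasome group (-0.19), class I chains (-0.24), class II genes (-0.39) and the 3 immune cell lists.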

How the data were processed

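RNA was sequenced from Nkx2.3-/- sublingual glands in 4 libraries, 2 at each age, prepared with an Illumina TruSeq kit, per the labels' protocols. The authors deposited whole-number read counts per gene symbol without normalization; reads were aligned with STAR to mm9, per the submitters' processing notes. For the STAR version, counting tool, annotation, strand setting and multi-mapping reads: not given in the sources used here. Overlapping and near-identical genes are therefore uncertain. Columns were matched to libraries by the index in the labels.

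Counts were tested in R 4.3.3 with edgeR 4.0.16 (quasi-likelihood test, TMM factors, filterByExpr by age, age as the only term, Benjamini-Hochberg adjustment over all 12810 genes kept, threshold 0.05). Log2 CPM by library adds 0.5 counts. Floors are 3 counts, and Poisson intervals are exact at 95%; both cover counting error only. Alternatives were RLE size factors, omission of the 10 most abundant genes, omission of the low-count filter, DESeq2 1.42.0 and each library left out. The fit was tested on simulated data. Positions, exon lengths and 50-base words come from GENCODE vM1 on NCBIM37, the assembly mm9 names, where all 34 symbols matched and 32 had a coding transcript. Words of a member's longest coding transcript were sought only in coding transcripts of other genes, so noncoding copies are not counted. Promoters come from RefSeq on GRCm38.p6. All members are named; of other lists, the most abundant gene, genes at 0, the signalling list and the 3 replaced proteasome subunits are, with a few more chosen after their values were seen. One gene of the signalling list is not reported here. The members and lists were chosen with earlier results of these data known.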

Additional observations from a re-analysis of the deposited data

How the results depend on the processing

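No member passed in any alternative run. The count of genes called over all genes was 7 with no low-count filter, 3 with DESeq2 and 3 to 15 with 1 library left out (15 without 32-week replicate 4), against 0. The members' median log2 fold change was 0.035 to 0.090 with 1 library left out, the highest without 32-week replicate 4. RLE size factors, omission of the 10 most abundant genes, omission of the filter and DESeq2 turned the direction of 0 of 28 members. Leaving out 1 library turned 10 members, whose log2 fold changes then ran from -0.332 to 0.505 for Gbp3, from -0.879 to 0.282 for Irgm1, from -0.716 to 0.157 for Irgm2, from -1.119 to 0.433 for Cxcl10, from -0.229 to 0.116 for Nlrc5, from -0.682 to 0.745 for Cd274, from -0.139 to 0.191 for Psme1, from -0.048 to 1.064 for Tap2, from -0.101 to 0.548 for B2m and from -0.234 to 0.373 for H2-T23. Omitting 8-week replicate 1 turned 5 members, omitting 8-week replicate 2 or 32-week replicate 3 turned 4 each, and omitting 32-week replicate 4 turned 2; the cause was not tested. Where an age was left with 1 library, that library was assumed to vary like the other pair. No paired analysis was possible because the ages share no replicate number. Depth limits Ido1, Ubd, Socs1, Cxcl9, Cxcl11, Gbp5, Tgtp1 and Cxcl10, which have 14 counts or fewer in each library.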

Other observations

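Values are in the order of replicates 1 to 4, the first pair at 8 weeks. Several class I genes beside the 4 chains were listed at 0. H2-L, H2-Q6, H2-Q7, H2-Q8, H2-T9 and H2-T22 had 0 counts in all 4 libraries, while H2-Q2 had 4.87, 10.4, 6.98 and 5.70 CPM, and H2-T24 had 7.08, 17.2, 12.7 and 7.39 CPM. Both were highest in 8-week replicate 2, as H2-T23 was. Fcgrt, the neonatal Fc receptor and the most abundant of this list, had 12.4, 21.1, 14.7 and 15.1 CPM. How reads that match several genes were counted is not known here.

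The share of a gene's 50-base words found in coding transcripts of other genes ran from 0% to 91.4% over the 32 members with a coding transcript. It was 91.4% for Tgtp1 (89.4% with Tgtp2 alone) and 80.9% for Gbp6 (76.2% with Gbp10 alone), against 14.8% for H2-T23, 14.3% for H2-D1 and 8.87% for H2-K1. Tgtp1 had 9, 14, 5 and 12 counts, beside 21, 24, 27 and 26 counts for Tgtp2. Irgm1 shared 0% of its words, and it had the largest span over the libraries of the member GTPases above 1 CPM, 2.51-fold.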
